A study of Mus musculus with 8 samples.

Results

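The livers of mice that lack Cnot3 in hepatocytes were compared with control livers at postnatal day 3 (d3), on 4 of the 8 Affymetrix arrays of the series. The arrays were chosen by their titles, 2 naming Cnot3KO at day 3 and 2 naming control at day 3, and the numbers 1 and 2 of the titles are kept here. The Cnot3KO livers, called Cnot3-/- livers here, came from mice with floxed *Cnot3* and Alb-Cre, a Cre recombinase driven by the albumin promoter, which acts in hepatocytes and their precursors. Other cells of these livers keep the gene. The labels give the controls as wild type, while the methods list (flox/+), (flox/flox), Alb-cre;(+/+) and Alb-cre;(flox/+) mice as controls, so it is not known whether the control livers carried Cre or a floxed allele. The mice were bred under SPF conditions, and no treatment is listed. Neither source says how many animals each array represents, so p-values measure the spread between these samples, which may be technical. The other 4 arrays, control and Cnot3-/- livers at embryonic day 16.5 (E16.5), entered the same fit and serve as a comparison. The study reports incomplete recombination and only a partial fall of Cnot3 protein at E16.5, and a large fall at d3.

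Cnot3 is a subunit of the CCR4-NOT complex, which shortens the poly(A) tails of cytoplasmic mRNAs and so starts their decay. RNA-binding proteins and Argonaute proteins bring the complex to particular mRNAs. In the days after birth the liver loses its blood-forming cells, and hepatocytes take up the metabolic and secretory work of the adult organ: oxidation of milk fat, gluconeogenesis, the urea cycle, bile formation and the synthesis of plasma proteins.

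Values are log2 of the deposited RMA intensities, and 1 probe set, the one with the highest mean, stands for each of 16667 genes. A gene was called higher or lower in Cnot3-/- livers where limma gave an adjusted p under 0.05 (Benjamini-Hochberg over all these genes). Differences are log2 fold changes, Cnot3-/- minus control. The 2 control arrays correlated at 0.9945 and the 2 Cnot3-/- arrays at 0.9968, and a control with a Cnot3-/- array at 0.9856 to 0.9907. Pairs of values below give array numbers 1 and 2 in that order. Albumin, the main secreted product of hepatocytes, stood at 15.21 and 15.24 in control and 15.22 and 15.22 in Cnot3-/- livers. On the linear scale the highest intensities were 37890 and 38690 in the control and 38160 and 38160 in the Cnot3-/- arrays. Albumin lay at this top of the range, so its level may not show a difference. *Cnot3* itself had log2 intensities of 8.35 and 8.28 against 7.96 and 8.16 (difference −0.25, standard error 0.14, adjusted p = 0.274). The position of its probe sets relative to the floxed exons is not given, so this value does not check the labels. The Y-linked transcript *Eif2s3y* stood at 9.82 and 3.56 against 3.59 and 3.62, so control number 1 was male-like and the other 3 arrays female-like. Genes that differ between the sexes, or that control number 1 alone carried, therefore have a wide spread among the controls. One such case, chosen after its values were seen, was the cytochrome P450 *Cyp2b9*, at 11.30 and 4.61 against 4.89 and 4.93 (adjusted p = 0.195), which passed without control number 2 (adjusted p = 8.1e-08).

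Of the 16667 genes, 1698 were called higher and 684 lower in d3 Cnot3-/- livers, that is 10.2% and 4.1% of those tested. These shares are the background against which each gene list is set below. For each of the 2382 called genes the range of the 2 Cnot3-/- arrays did not overlap that of the 2 controls. The share of such genes among those not called is not given here, so lack of overlap adds no support to a call. The median log2 fold change over all genes was 0.00, but RMA brings the arrays to a near-common distribution. A shift of all genes together could therefore not be seen. More than 1.5-fold higher were 1171 genes (7.03%) and more than 1.5-fold lower 425 (2.55%). More than 4-fold higher were 49 genes, against 3 lower. The 3 lower were *Serpina7*, which was called, and *Eif2s3y* and *Cyp2b9*, which were not called and stood high in control number 1 alone. These fold counts carry no test. At E16.5 limma called 0 genes in either direction, with 346 genes at an unadjusted p under 0.05. The difference between the genotype effects of the 2 ages was called for 383 genes in the positive direction (2.3%) and 38 in the negative direction (0.228%). The calls depended on each array: without control number 1 or number 2 there were 825 or 931 higher and 260 or 207 lower, and without Cnot3-/- number 1 or number 2 480 or 943 higher and 59 or 373 lower. Held without each of the 4 arrays in turn were 444 of the higher and 53 of the lower calls. Where 1 array ended a call named below, it is given in brackets as C1 or C2 for control number 1 or 2 and K1 or K2 for Cnot3-/- number 1 or 2, with the lowest and highest adjusted p obtained without such an array. Of the called genes named below, another probe set of *Il1rap*, *Bcl2l11*, *Aurka*, *Cnot11*, *Cnot2*, *Pex16*, *Pdxk*, *Kynu*, *Hamp2*, *Igf1*, *Ghr*, *Tgfa*, *Igdcc4*, *Pkp2*, *Tubb6* and *Rnf213* had the opposite sign without being called. A list's count of calls in 1 direction, where it was at least 5, moved by over 1.5 times without at least 1 of these arrays in 54 of 62 cases. Such counts are given below for C1, C2, K1 and K2 left out one at a time, in that order. The genes of 68 lists and 43 symbol families are described next, first those of the immune response, then stress and proliferation, metabolism, secretion, and the other cells of the liver.

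**Figure D1:**
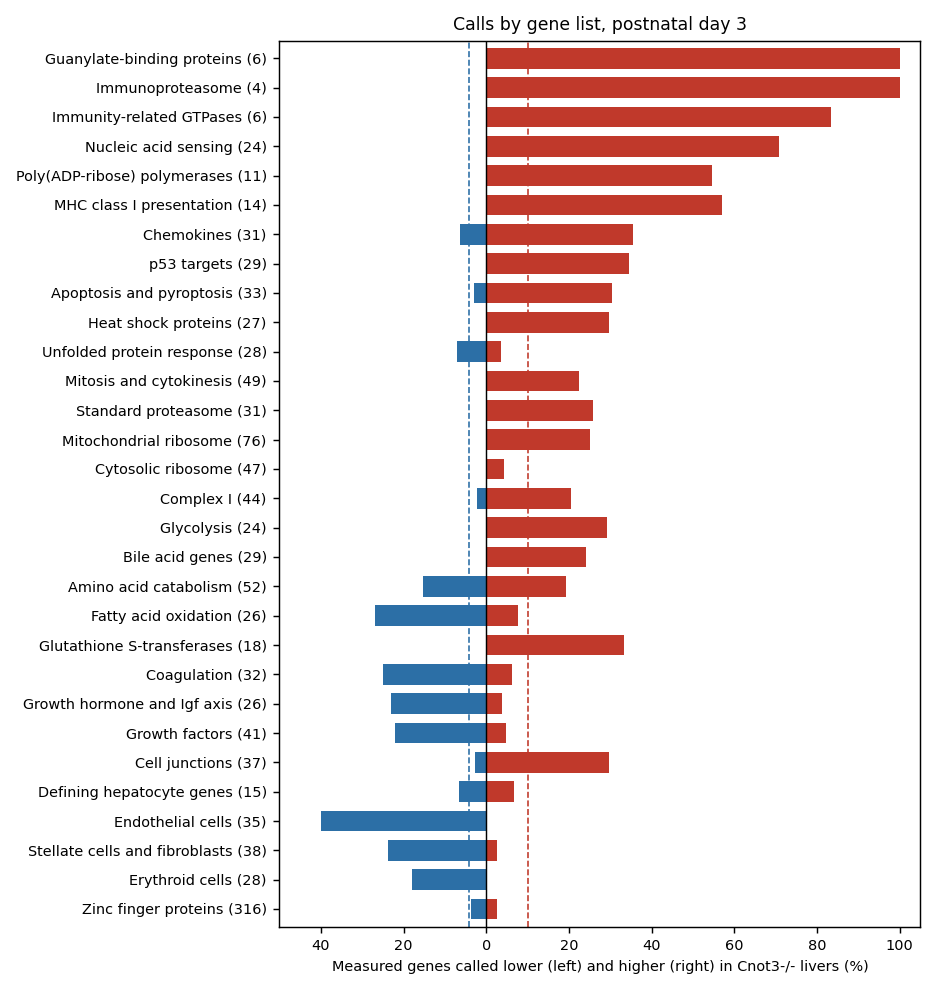
Share of the measured genes of 30 lists and families called higher (red, to the right) and lower (blue, to the left) in d3 Cnot3-/- livers, in percent, with the number of measured genes beside each name. Dashed lines mark the shares over all genes tested, 10.2% higher and 4.1% lower, and the bars farthest past them are the guanylate-binding proteins and the immunoproteasome to the right and the endothelial genes to the left.

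Most members of the interferon-induced GTPase families rose. All 6 measured guanylate-binding proteins, which attack the vacuoles of intracellular microbes, were called higher (median 1.40), and 5 of 6 immunity-related GTPases, which act with them (1.38). *Gbp3* had log2 intensities of 7.78 and 8.27 in control and 10.89 and 10.66 in Cnot3-/- livers, a difference of 2.75 (standard error 0.18, adjusted p = 1.26e-05). *Gbp2* stood at 9.14 and 9.71 against 11.57 and 11.44 and *Igtp* at 11.21 and 11.44 against 13.15 and 12.89. *Irgm1* and *Irgm2*, which regulate the other GTPases, rose by 1.47 and 1.29, *Gbp7* by 1.42, and *Gbp6* by 1.32. Neighbouring genes of these families are similar in sequence, so probe sets may be shared between relatives.

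The promoters of these GTPases are shown because their genes moved together and because the interferon-stimulated response element, a site bound by Irf proteins, is a short known motif. A motif of GAAA, any 2 bases and a second GAAA was searched on both strands in the 250 bases before each RefSeq start site (GRCm38.p6), and overlapping matches count once per gene. Of the 27025 genes with such a window 3.46% held a match, and of all 32851 windows 2.98%. All 4 guanylate-binding protein genes with a window held one, and 3 of 4 immunity-related GTPases. The matches, in capitals within 30 bases of the gene's own strand, were these:
Gbp2, chr3:142620594-142620623, plus strand: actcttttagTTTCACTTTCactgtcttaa
Gbp2b, chr3:142594700-142594729, plus strand: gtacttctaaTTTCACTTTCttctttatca
Gbp3, chr3:142559995-142560024, plus strand: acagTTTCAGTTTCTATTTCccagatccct
Gbp7, chr3:142530273-142530302, plus strand: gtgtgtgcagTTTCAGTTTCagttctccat
Igtp, chr11:58199512-58199541, plus strand: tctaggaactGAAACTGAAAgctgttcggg
Irgm1, chr11:48871425-48871454, minus strand: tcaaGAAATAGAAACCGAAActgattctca
Irgm2, chr11:58214903-58214932, plus strand: tccaggaactGAAACTGAAAgctgttcggg
The matches ended from 14 to 127 bases before the start site, and the printed stretches of *Igtp* and *Irgm2* had 29 of 30 bases in common. Among genes called higher, 75 of 1378 with a window (5.44%) held the letters, among those called lower 18 of 526 (3.42%), and among those not called 327 of 11365 (2.88%). The 4 immunoproteasome genes held no match in these windows. A match is a description of the sequence and shows no binding.

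Other interferon-induced families had some members called. Of 11 poly(ADP-ribose) polymerases, enzymes that attach ADP-ribose to proteins, 6 rose (median 0.60): *Parp12* by 2.16, *Parp14* by 1.62, *Parp9* by 1.52, *Parp3* by 1.24 and *Parp11* by 0.85. Of 8 schlafens 5 rose, led by *Slfn4*, a myeloid gene, at 6.83 and 6.45 in control and 10.38 and 8.33 in Cnot3-/- livers. *Slfn8* and *Slfn1* followed with 1.17 and 0.92. Of 55 tripartite motif proteins, a family of ubiquitin ligases, 10 rose and 3 fell. The 10 included *Trim30d* (2.40), *Trim30a* (1.69), *Trim34a* (1.65) and *Trim21* (1.25), the last a cytosolic antibody receptor. Among sensors of foreign nucleic acid 17 of 24 were called higher and none lower (median 0.85). They included the DNA and Z-RNA sensor *Zbp1*, the RNA helicases *Ifih1* (1.85) and *Dhx58* (2.11), the endosomal receptor *Tlr3* (1.20) and the 2-5A synthetase *Oas1a* (2.44). *Zbp1* had log2 intensities of 7.04 and 6.95 against 9.94 and 9.70 (difference 2.83, standard error 0.14). Of the 11 toll-like receptors *Tlr3* alone passed. Calls among the sensors were 13, 15, 10 and 16 without C1, C2, K1 and K2. The call did not hold without 1 array for *Slfn4* (C2 or K1, adjusted p 0.0696 to 0.0821).

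The interferons and their receptors moved far less than these genes. *Ifnb1* stood at 5.50 and 5.58 in control and 5.65 and 5.80 in Cnot3-/- livers (difference 0.18, adjusted p = 0.632). *Ifna1* and *Ifna2* differed by −0.13 and −0.18, the receptor subunits *Ifnar1* and *Ifnar2* by −0.25 and 0.37, and *Ifngr1* and *Ifngr2* by −0.05 and −0.19, and none of these passed. *Ifng*, the interferon of T and NK cells, was called higher at a low level, 4.78 and 4.67 against 5.40 and 5.44 (difference 0.70, adjusted p = 0.00355). The signalling genes rose instead: *Stat2* by 1.02, *Irf9* by 1.24, *Irf1* by 1.13, *Irf7* by 1.88 and the feedback inhibitor *Usp18* by 2.28. The kinases *Jak1*, *Jak2* and *Tyk2* differed by 0.23, −0.17 and 0.11 and did not pass. In all 7 of 22 genes of this list were called higher and none lower.

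Genes of antigen processing for MHC class I rose. The inducible catalytic subunits of the immunoproteasome, which replace their counterparts in the standard proteasome and cut peptides for MHC class I, were all called higher. *Psmb8* had log2 intensities of 10.47 and 10.44 in control and 12.32 and 12.10 in Cnot3-/- livers, *Psmb9* of 9.43 and 9.53 against 11.34 and 11.31 and *Psmb10* of 10.80 and 10.75 against 12.69 and 12.44. In each the lowest Cnot3-/- array was more than 1.5 above the highest control on the log2 scale. The differences were 1.75, 1.84 and 1.79 (standard errors 0.15, 0.14 and 0.13), and the activator subunit *Psme1* rose by 0.94. Downstream, the peptide transporters *Tap1* and *Tap2* rose by 1.64 and 0.68, the trimming peptidase *Erap1* by 0.99, the tapasin relative *Tapbpl* by 0.90, and *Nlrc5*, the transactivator of class I genes, by 1.65. *Tap1* stood at 8.42 and 8.78 against 10.22 and 10.26. Of 14 class I pathway genes 8 rose and none fell. The 31 measured subunits of the standard proteasome moved less but the same way: every one had a positive difference, from 0.02 to 0.64 (median 0.29), and 8 were called, *Psmd12* and *Psmc1* with the largest rises (0.63 and 0.57). These 8 calls became 0 and 2 without control number 1 or 2, and 0 and 0 without Cnot3-/- number 1 or 2, and ranged from 7 to 12 under the other settings tried. MHC class II, which displays peptides on professional antigen-presenting cells, had 1 gene higher and 1 lower of 9. The class I rises were 8, 7, 5 and 7 in that same order of arrays left out. Lost without a single array was the call of *Tapbpl* (K1, adjusted p 0.0611), *Psmd12* (C1, K1 or K2, 0.0585 to 0.106) and *Psmc1* (C1, K1 or K2, 0.0697 to 0.104). Averaged over all kept probe sets of a gene, the adjusted p of *Erap1* was 0.0542.

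**Figure D2:**
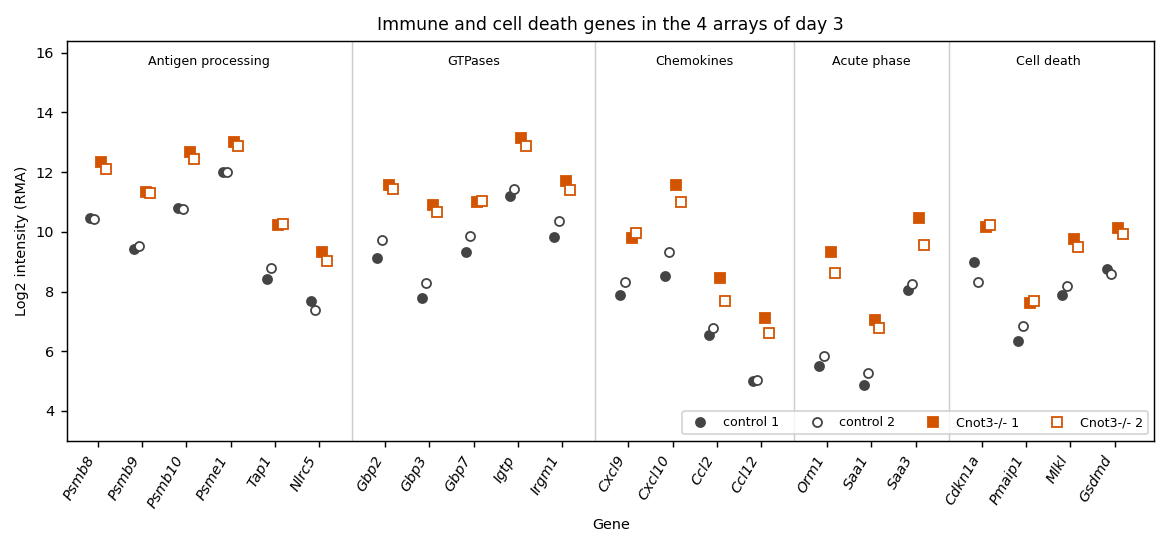
Log2 intensity in each of the 4 d3 arrays (circles, control; squares, Cnot3-/-; filled, number 1; open, number 2) for genes of antigen processing, GTPase families, chemokines, acute phase and cell death. For each gene shown both Cnot3-/- arrays lie above both controls, as for *Psmb9* (9.43 and 9.53 against 11.34 and 11.31).

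Chemokine and inflammatory genes changed mostly upwards. Of 31 chemokines, 11 rose and 2 fell. *Cxcl9* and *Cxcl10*, which attract activated T cells, rose by 1.77 and 2.36, and the monocyte attractants *Ccl12* and *Ccl2* by 1.84 and 1.41. *Ccl12* was low in the controls, at 5.02 and 5.02 in control and 7.10 and 6.61 in Cnot3-/- livers. The neutrophil attractant *Cxcl1* rose by 1.16. The 2 that fell were *Cxcl12* (−0.73) and *Ccl25* (−0.48), both homeostatic chemokines, named here after their values were seen. NF-kB targets and regulators had 5 of 23 called higher, among them *Bcl3* (1.10) and the cytokine *Il6* (0.98, at 4.80 and 5.02 against 6.01 and 5.77). In the list of JAK-STAT3 and acute-phase genes 7 of 28 rose and 1 fell. It holds plasma proteins that rise in inflammation, and also receptors and signalling genes. *Orm1* had the largest rise, 3.28 (adjusted p = 1.21e-05), at 5.52 and 5.85 against 9.31 and 8.62. The serum amyloid genes *Saa1* and *Saa3* rose by 1.84 and 1.86. The oncostatin M receptor *Osmr* rose by 0.90, while *Il1rap*, the shared co-receptor of interleukin 1 and 33, fell by 1.57, at 10.94 and 10.91 against 9.15 and 9.57. The fibrinogen chain *Fgb* differed by 0.39 and did not pass (adjusted p = 0.0628). Complement had 2 genes higher and 2 lower of 23, and its largest rise was in the pore-forming component *C9*, at 7.93 and 8.78 against 10.43 and 10.44 (difference 2.08). Without C1, C2, K1 and K2 the chemokine rises were 7, 9, 6 and 10 and those of the JAK-STAT3 and acute-phase list 5, 7, 3 and 5. Calls that 1 array decided were those of *Osmr* (K1, adjusted p 0.0793), *Il1rap* (K1, 0.0578), *Cxcl12* (C2 or K1, 0.0653 to 0.0816) and *Ccl25* (C1, C2, K1 or K2, 0.0644 to 0.177). With the mean of all kept probe sets per gene the adjusted p of *Ccl25* was 0.0544.

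Of 29 p53 targets 10 (34.5%) rose and none fell (median 0.30), led by *Psrc1*, a spindle protein, at 7.91 and 7.80 in control and 9.98 and 9.91 in Cnot3-/- livers. The cyclin-dependent kinase inhibitor *Cdkn1a* stood at 8.98 and 8.31 against 10.15 and 10.21 (difference 1.54, standard error 0.19). The Akt inhibitor *Phlda3* rose by 1.22 and *Pmaip1*, which encodes the death-promoting Bcl2 relative Noxa, by 1.07. Among 33 genes of apoptosis and pyroptosis 10 rose and 1 fell. *Mlkl*, which ruptures the membrane in necroptosis, rose by 1.58, at 7.88 and 8.20 against 9.75 and 9.49. *Gsdmd*, the pore former of pyroptosis, rose by 1.35, at 8.75 and 8.59 against 10.12 and 9.92, and the inflammasome adaptor *Pycard* and the inflammatory caspase *Casp4* by 0.99 and 0.72. The gene that fell was *Bcl2l11*, which encodes the death promoter Bim (−0.59). The p53 calls were 6 and 9 without control number 1 or 2, and 6 and 5 without Cnot3-/- number 1 or 2, and the rises of the death list 5, 7, 4 and 6 without C1, C2, K1 and K2. The call did not hold without 1 array for *Casp4* (K1, adjusted p 0.0712) and *Bcl2l11* (C1, C2, K1 or K2, 0.0553 to 0.132). Averaged over all kept probe sets of a gene, the adjusted p of *Bcl2l11* was 0.351 and *Pycard* was 0.0642.

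The list for mitosis and cytokinesis had 11 of 49 genes called higher and none lower, and 47 had a positive difference (median 0.23). *Cdc20*, which activates the anaphase-promoting complex, stood at 11.08 and 11.24 in control and 11.98 and 11.96 in Cnot3-/- livers (difference 0.81, adjusted p = 0.00221), and the spindle kinase *Aurka* at 9.29 and 9.51 against 10.08 and 10.30. The replication list had 5 of 40 higher (median 0.05), with the clamp loader subunit *Rfc3* up by 0.91, and DNA repair 8 of 35, with the excision repair protein *Xpa* up by 0.89. Of 44 cyclins, Cdks and inhibitors 4 rose and 2 fell, the latter *Cdk6* (−0.61) and *E2f2* (−0.58). The 2 controls differed from each other in this group: the median of control number 1 minus control number 2 was −0.35 over the mitotic genes. The 11 mitotic calls were 2 and 11 without control number 1 or 2, and 3 and 3 without Cnot3-/- number 1 or 2. Those of DNA repair were 2, 6, 1 and 1 without C1, C2, K1 and K2. Single arrays decided the call of *Cdk6* (C1, C2 or K1, adjusted p 0.0545 to 0.156) and *E2f2* (C1, C2 or K1, 0.0513 to 0.345). Reading a gene by the mean of its kept probe sets, the adjusted p of *Aurka* was 0.259.

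Stress responses differed from each other in their counts. Of 27 heat shock genes 8 rose and none fell (median 0.37), among them the cochaperone *Bag3* at 8.91 and 8.76 in control and 9.73 and 9.41 in Cnot3-/- livers. Of 28 genes of the unfolded protein response 1 rose and 2 fell (median −0.07), the largest change being *Sel1l*, an adaptor of ER-associated degradation, which fell by 0.69. Of 23 Atf4 targets 6 rose and 1 fell. *Atf3*, also an immediate early gene, stood at 6.92 and 7.40 against 8.70 and 8.35 (difference 1.36), and the serine synthesis enzymes *Phgdh* and *Psat1* rose by 0.68 and 0.61. The hormone *Fgf21*, another target, went the other way, at 7.92 and 6.94 against 6.05 and 6.09 (difference −1.36, adjusted p = 0.00534). Of 29 Nrf2 targets and glutathione genes *Gsta2* and *Gstm2* alone passed, with rises of 2.04 and 0.76. Immediate early genes had 5 of 31 called higher, and *Egr2* rose by 0.93 at a low level, 4.32 and 4.15 against 5.25 and 5.08. The heat shock calls were 1 and 3 without control number 1 or 2, and 0 and 1 without Cnot3-/- number 1 or 2. The rises among Atf4 targets were 4, 2, 1 and 5 without C1, C2, K1 and K2. Lost without a single array was the call of *Phgdh* (K1, adjusted p 0.0656), *Fgf21* (K1, 0.0525), *Sel1l* (C1 or K1, 0.087 to 0.105), *Bag3* (C2 or K1, 0.0727 to 0.137) and *Psat1* (C2 or K1, 0.0711 to 0.139). With the mean of all kept probe sets per gene the adjusted p of *Sel1l* was 0.0599.

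The mRNA decay machinery itself changed in single members. Of 10 measured CCR4-NOT subunits 2 were called higher, *Cnot11* by 0.58 and *Cnot2* by 0.42, and none lower. The catalytic subunits *Cnot6*, *Cnot6l*, *Cnot7* and *Cnot8* differed by −0.41, −0.10, −0.02 and 0.27, the remaining subunits *Cnot4*, *Cnot9* and *Cnot10* by 0.06, 0.05 and 0.38, and none of these 7 passed. Of 29 proteins that bring the complex to mRNAs 1 rose and 4 fell (median −0.20). The lower ones included *Samd4*, a sequence-specific repressor of translation, at 7.31 and 7.42 in control and 6.52 and 6.80 in Cnot3-/- livers, and the Argonautes *Ago2* and *Ago1* (−0.60 and −0.52). Of 40 other decay factors 6 rose, with the exosome subunits *Exosc7* at 10.25 and 10.14 against 11.24 and 11.12 and *Exosc4* at 9.27 and 9.15 against 9.92 and 10.01 (0.99 and 0.75). The poly(A)-binding protein *Pabpc4* fell by 0.55. Leaving out 1 array ended the call of *Samd4* (K1, adjusted p 0.0989), *Ago2* (C1, C2 or K1, 0.0546 to 0.199), *Pabpc4* (C1, C2 or K1, 0.0786 to 0.257), *Cnot11* (C1, K1 or K2, 0.0741 to 0.0938), *Cnot2* (C1, C2, K1 or K2, 0.0828 to 0.248) and *Ago1* (C1, C2, K1 or K2, 0.0561 to 0.24). Averaged over all kept probe sets of a gene, the adjusted p of *Cnot11* was 0.525 and *Cnot2* was 0.0544.

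The ribosomal proteins of mitochondria and of the cytosol are set side by side here. Of 76 mitochondrial ribosomal proteins 19 (25%) were called higher and none lower, and 65 had a positive difference (median 0.24). Of 47 cytosolic ribosomal proteins 2 were called higher (4.26%, median −0.03). *Mrps35* had log2 intensities of 9.61 and 9.72 in control and 10.66 and 10.62 in Cnot3-/- livers (difference 0.98, standard error 0.14), and *Mrpl45* of 9.20 and 9.22 against 10.12 and 10.05, each with tight replicates. Of 44 complex I genes of the respiratory chain 9 rose and 1 fell. They included the assembly factors *Ndufaf6*, *Ndufaf5* and *Ndufaf3* (0.89, 0.79 and 0.76) as well as the core subunit *Ndufs7* (0.75). None of the 17 ATP synthase genes passed, in either direction. Of 24 genes of complexes III and IV 2 rose, and both are tissue-specific forms: *Cox7a1*, the form of heart and muscle, at 5.04 and 5.13 against 8.92 and 7.94, and *Cox6b2*, the form of testis, at 8.51 and 9.99 against 10.78 and 10.97. Of 19 cytosolic aminoacyl-tRNA synthetases 4 rose and none fell, among them *Rars* (0.71) and *Kars* (0.58). Of 33 translation factors 4 rose and 2 fell. The largest rise was in *Eif2b4*, a subunit of the exchange factor for eIF2, at 10.42 and 10.22 against 11.38 and 11.25. Ribosome biogenesis genes were higher in 5 and lower in 2 of 33. The 19 mitochondrial ribosomal calls were 10 and 6 without control number 1 or 2, and 3 and 10 without Cnot3-/- number 1 or 2, and from 16 to 28 under the other settings, and the complex I rises 4, 3, 2 and 4 without C1, C2, K1 and K2. Calls that 1 array decided were those of *Ndufaf5* (K1, adjusted p 0.0504), *Rars* (K1, 0.0604), *Ndufaf3* (C2 or K1, 0.0531 to 0.0869), *Kars* (C2 or K1, 0.0591 to 0.113) and *Cox6b2* (K1 or K2, 0.0546 to 0.0571).

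**Figure D3:**
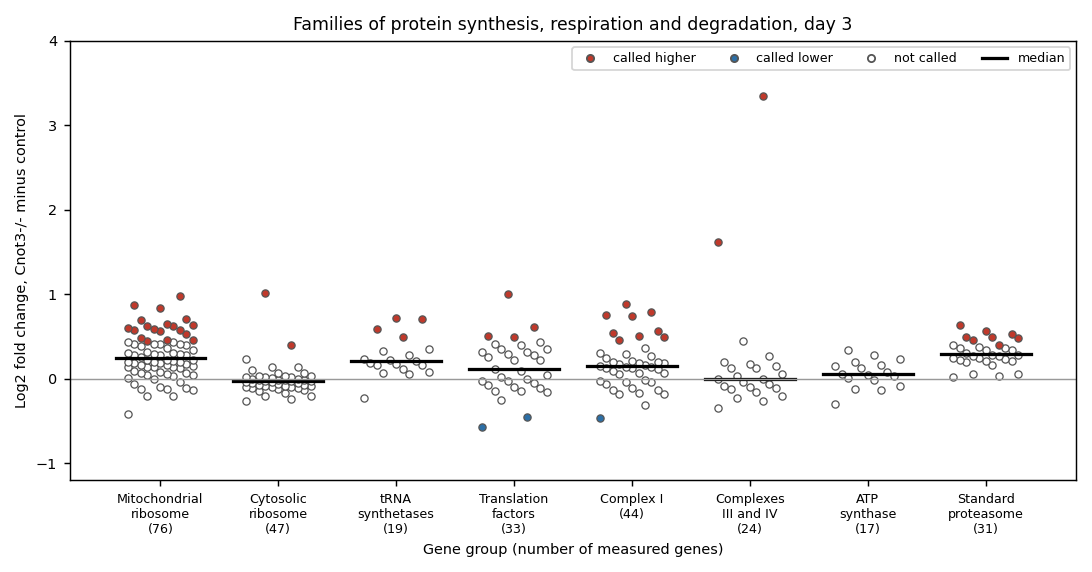
Log2 fold change (Cnot3-/- minus control at d3) of each measured gene in 8 families of protein synthesis, respiration and protein degradation, with called genes filled, others open, and the median as a bar. The mitochondrial ribosomal proteins (median 0.24) and the standard proteasome (0.29) lie mostly above 0, while the cytosolic ribosomal proteins centre on −0.03.

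Of 26 genes of mitochondrial fatty acid oxidation and ketogenesis 7 (26.9%) fell and 2 rose (median −0.23). The acyl-CoA dehydrogenase *Acads* stood at 10.61 and 10.73 in control and 9.83 and 10.12 in Cnot3-/- livers (difference −0.70), and *Bdh1*, the last enzyme of ketone body synthesis, stood at 13.08 and 12.96 against 11.82 and 12.39 (difference −0.92, adjusted p = 0.00599). Called higher were *Cpt2*, which readies long-chain fatty acids for oxidation inside mitochondria (0.60), and the coactivator *Ppargc1a* (1.08). Of 33 genes of peroxisomal lipid metabolism 7 rose and 2 fell, with *Acox2*, the oxidase of branched chains and bile acid intermediates, up by 0.89, the peroxin *Pex16* up by 0.90, and the bifunctional enzyme *Ehhadh* at 11.24 and 11.73 against 10.42 and 10.68 (difference −0.94). The 7 lower calls in fatty acid oxidation were 4 and 2 without control number 1 or 2, and 0 and 3 without Cnot3-/- number 1 or 2, and from 4 to 10 under the other settings. Peroxisomal rises were 3, 3, 1 and 3 without C1, C2, K1 and K2. Single arrays decided the call of *Bdh1* (K1, adjusted p 0.079), *Acox2* (K1, 0.0575), *Ppargc1a* (C1 or K2, 0.131 to 0.14), *Acads* (C2 or K1, 0.0853 to 0.164), *Cpt2* (C2 or K1, 0.0545 to 0.0996) and *Ehhadh* (C2 or K1, 0.129 to 0.156). Averaged over all kept probe sets of a gene, the adjusted p of *Pex16* was 0.0738.

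Within fatty acid synthesis, enzymes that make polyunsaturated fatty acids were among the falls. The desaturase *Fads1* stood at 12.16 and 12.06 in control and 10.85 and 11.33 in Cnot3-/- livers and *Fads2* at 11.62 and 11.60 against 10.09 and 10.85, differences of −1.02 and −1.14 (standard errors 0.16 and 0.21). *Mgll*, which breaks down monoacylglycerol, stood at 10.64 and 10.73 against 8.95 and 9.79 (difference −1.32), with Cnot3-/- number 1 the lower of the Cnot3-/- arrays for all 3. In the whole list of fatty acid and triglyceride synthesis 3 of 28 rose and 5 fell, and *Acacb*, whose product malonyl-CoA restrains fatty acid entry into mitochondria, rose by 0.87. Of 23 lipid droplet and fatty acid uptake genes 4 rose and 1 fell. The rises were in proteins that coat droplets or set their size, with *Plin3* at 9.29 and 9.36 against 10.58 and 10.46 (difference 1.20), *Plin2* up by 0.63 and *Cidec* up by 0.89. Cholesterol synthesis and uptake had 3 of 24 higher and 1 lower, with *Pmvk* up by 0.75. Lost without a single array was the call of *Fads2* (K1, adjusted p 0.0525), *Pmvk* (K1, 0.0545), *Plin2* (C2 or K1, 0.0844 to 0.111) and *Cidec* (C2 or K1, 0.177 to 0.251).

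Of 29 bile acid genes 7 rose and none fell, although the list's median was 0.00. *Baat*, which conjugates bile acids with taurine or glycine, stood at 7.36 and 7.95 in control and 10.21 and 9.93 in Cnot3-/- livers (difference 2.41, adjusted p = 4.08e-05). The basolateral exporter subunit *Slc51b* stood at 7.97 and 7.30 against 9.36 and 8.83, and the nuclear receptor *Nr0b2* (SHP), which represses bile acid synthesis, at 8.56 and 8.46 against 9.48 and 9.42, rises of 1.46 and 0.94. Of 25 apolipoprotein and lipoprotein genes 1 rose and 2 fell. *Apoc3*, an inhibitor of lipoprotein lipase, stood at 11.78 and 12.10 against 13.45 and 13.16, while *Apob*, the scaffold of very low density lipoprotein, stood at 12.51 and 12.65 against 11.21 and 11.72 (difference −1.12, standard error 0.17). *Apoa1* differed by 0.05. The bile acid calls were 3, 4, 3 and 4 without C1, C2, K1 and K2.

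**Figure D4:**
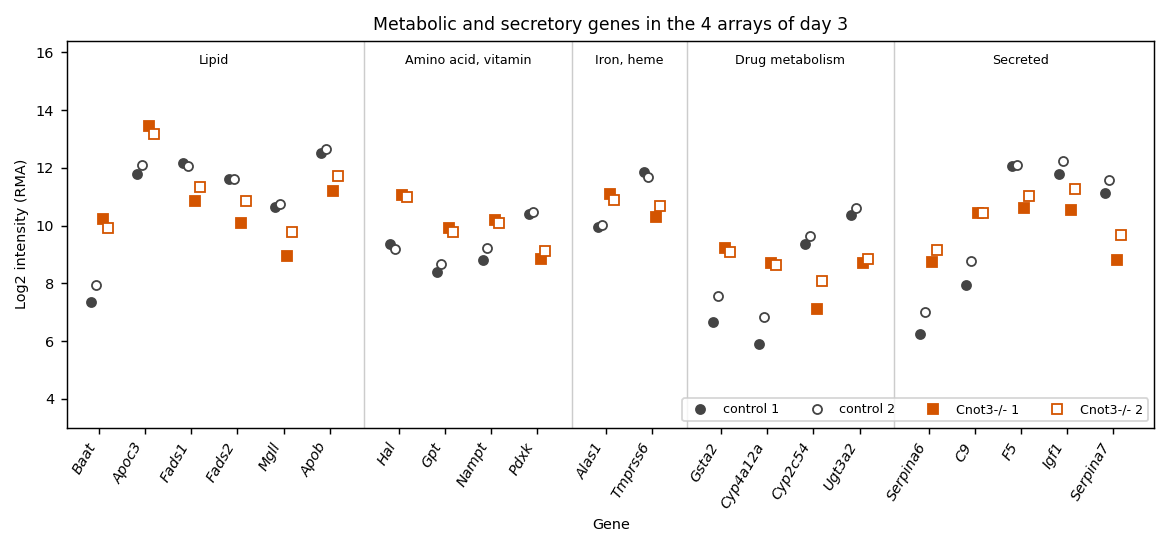
Log2 intensity in each of the 4 d3 arrays (circles, control; squares, Cnot3-/-; filled, number 1; open, number 2) for genes of lipid, amino acid, vitamin, iron and drug metabolism and of secreted proteins. *Baat*, *Hal* and *Serpina6* lie higher in both Cnot3-/- arrays, and *Fads1*, *Pdxk*, *Tmprss6*, *Ugt3a2* and *Serpina7* lower.

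Of 24 glycolytic genes 7 rose and none fell. The platelet-type phosphofructokinase *Pfkp* stood at 6.92 and 6.99 in control and 8.85 and 8.23 in Cnot3-/- livers (difference 1.58, adjusted p = 0.000547), and the fetal liver aldolase *Aldoa* at 10.86 and 11.32 against 11.98 and 11.88. The glucose transporter *Slc2a1* rose by 0.92, and *Tpi1* by 0.71. Gluconeogenesis and glycogen had 3 higher and 2 lower of 28: *Pygb*, the brain form of glycogen phosphorylase, rose by 0.80. Of 13 genes of the urea cycle and ammonia handling 3 rose and 1, *Rhbg*, fell (median −0.06). *Arg1*, *Nags* and *Asl* rose by 0.88, 0.79 and 0.74, and *Cps1*, the entry enzyme of the urea cycle, differed by 0.28 without passing. The TCA cycle had 2 of 28 higher and 3 lower. The glycolytic calls were 2 and 4 without control number 1 or 2, and 1 and 5 without Cnot3-/- number 1 or 2. The call did not hold without 1 array for *Aldoa* (K1, adjusted p 0.0688), *Pygb* (K1, 0.0513), *Slc2a1* (C1 or K1, 0.139 to 0.191), *Tpi1* (C1 or K1, 0.0527 to 0.07), *Arg1* (C1 or K1, 0.0658 to 0.0864), *Nags* (C1 or K1, 0.0631 to 0.0806) and *Asl* (C2 or K1, 0.0726 to 0.104).

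Enzymes of amino acids and vitamins moved in both directions. Of 52 amino acid catabolism genes 10 rose and 8 fell. Histidine ammonia-lyase, *Hal*, stood at 9.37 and 9.20 in control and 11.06 and 10.98 in Cnot3-/- livers (difference 1.73, adjusted p = 3.12e-05), alanine aminotransferase, *Gpt*, at 8.38 and 8.68 against 9.91 and 9.78, and kynureninase, *Kynu*, at 9.50 and 9.57 against 10.33 and 10.46. The falls included *Pccb*, a subunit of propionyl-CoA carboxylase, at 9.33 and 9.38 against 8.44 and 8.55 (difference −0.87), and the proline pathway enzyme *Aldh4a1* (−0.68). Of 32 one-carbon, folate and vitamin genes 6 rose and 5 fell, with enzymes of NAD synthesis among the rises: *Nampt* stood at 8.79 and 9.21 against 10.18 and 10.08, *Naprt* at 9.60 and 9.45 against 10.43 and 10.46 and *Nmnat1* at 6.92 and 7.07 against 7.83 and 7.93, rises of 1.13, 0.91 and 0.89. *Pdxk*, which phosphorylates vitamin B6 to its active form, stood at 10.40 and 10.48 against 8.85 and 9.11 (difference −1.46, adjusted p = 7.03e-05). In iron handling *Tmprss6*, the protease that restrains hepcidin, stood at 11.84 and 11.69 against 10.28 and 10.66 (difference −1.29). *Hamp2*, a hepcidin gene, stood at 9.46 and 7.90 against 10.34 and 10.11 and was called higher (1.54, adjusted p = 0.0163), with wide controls. Heme synthesis and iron handling had 3 genes higher and 3 lower of 31. The largest difference of that list, 3.28, was in a gene that did not pass. *Alas1*, the rate-limiting enzyme of heme synthesis in liver, rose by 1.01, at 9.94 and 10.01 against 11.10 and 10.88. Rises in amino acid catabolism were 6, 8, 5 and 7, and falls 2, 3, 0 and 4, without C1, C2, K1 and K2. Single arrays decided the call of *Pccb* (K1, adjusted p 0.0575), *Aldh4a1* (K1, 0.0718) and *Hamp2* (K1 or K2, 0.0514 to 0.132). With the mean of all kept probe sets per gene the adjusted p of *Hamp2* was 0.0754 and *Kynu* was 0.176.

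Drug-metabolizing families held both rises and falls. Of 18 glutathione S-transferases 6 rose and none fell: *Gsta2* stood at 6.67 and 7.55 in control and 9.22 and 9.08 in Cnot3-/- livers, *Gstt3* rose by 1.63, *Gstp3* by 1.48 and *Gstt2* by 1.00. UDP-glucuronosyltransferases had 3 of 9 lower and 1 higher, and *Ugt3a2* stood at 10.36 and 10.60 against 8.69 and 8.84 (difference −1.71, adjusted p = 0.000532). Among 37 genes of the Cyp1, Cyp2 and Cyp3 families of cytochrome P450 4 rose and 3 fell. *Cyp2c54* stood at 9.37 and 9.65 against 7.10 and 8.07 and the caffeine-metabolizing *Cyp1a2* at 10.83 and 10.95 against 9.69 and 10.01 (differences −1.93 and −1.04), while *Cyp2d9* rose by 0.86. In the Cyp4 family, fatty acid omega-hydroxylases, relatives moved apart: *Cyp4a12a* stood at 5.89 and 6.84 against 8.70 and 8.62 and *Cyp4a31* at 11.77 and 11.57 against 10.72 and 10.84 (differences 2.30 and −0.89). Carboxylesterases did so as well, with *Ces2b* up by 1.45 and *Ces1d* down by 1.45, 1 higher and 3 lower of 13. Of 12 organic anion transporters of the Slco family none passed, and of 300 solute carriers 23 rose and 25 fell. Members of these families are close in sequence, so a probe set may also read a relative. Solute carrier rises were 10, 11, 6 and 12, and falls 8, 10, 1 and 16, without C1, C2, K1 and K2. Lost without a single array was the call of *Ces1d* (C2 or K1, adjusted p 0.0503 to 0.0661).

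Of 32 coagulation and fibrinolysis genes 8 fell and 2 rose, and 25 had a negative difference (median −0.18). Factor V, *F5*, stood at 12.06 and 12.09 in control and 10.61 and 11.04 in Cnot3-/- livers (difference −1.25, standard error 0.18), and the cofactor gene *Proz* at 12.09 and 12.11 against 11.09 and 11.29. Factor XII, *F12*, fell by 0.83 and factor IX, *F9*, by 0.96. Prothrombin, *F2*, and antithrombin, *Serpinc1*, differed by −0.24 and −0.11 and did not pass. Of 34 other secreted hepatocyte proteins 3 rose and 4 fell, and 2 hormone carriers moved in opposite directions: *Serpina6*, the carrier of corticosteroids, stood at 6.24 and 7.0 against 8.74 and 9.16 (difference 2.33), and *Serpina7*, the carrier of thyroxine, at 11.14 and 11.58 against 8.81 and 9.67 (difference −2.12). The 8 lower calls in coagulation were 3 and 3 without control number 1 or 2, and 2 and 4 without Cnot3-/- number 1 or 2, and from 6 to 12 under the other settings. Leaving out 1 array ended the call of *F12* (C1, K1 or K2, adjusted p 0.0743 to 0.124) and *F9* (C1, C2, K1 or K2, 0.0597 to 0.187).

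Called changes in the growth hormone axis and among growth factors were mostly falls. Of 26 genes of the growth hormone and Igf axis 6 fell and 1 rose. *Igf1*, the main growth factor that the liver releases after birth, stood at 11.79 and 12.24 in control and 10.54 and 11.26 in Cnot3-/- livers (difference −1.11, adjusted p = 0.00641). Its carrier *Igfbp3* stood at 9.34 and 9.62 against 8.21 and 8.60 (difference −1.08), and the growth hormone receptor *Ghr* fell by 0.71. The fetal growth factor *Igf2* differed by −0.30. Among 41 other growth factor, Wnt and TGF-beta genes 9 fell and 2 rose: *Bmp2*, which endothelial cells use to set hepcidin, stood at 8.86 and 8.37 against 7.51 and 7.74 (difference −0.99), *Inhbe*, a hepatocyte activin subunit, at 9.34 and 9.19 against 8.29 and 8.50, and *Tgfa* fell by 0.72. Without C1, C2, K1 and K2 the 6 lower calls of the hormone axis were 3, 1, 1 and 3. The 9 lower calls of the other growth factors were 3 and 5 without control number 1 or 2, and 1 and 5 without Cnot3-/- number 1 or 2. Calls that 1 array decided were those of *Tgfa* (K1, adjusted p 0.0534), *Bmp2* (C1 or K1, 0.0836 to 0.1), *Igf1* (C2 or K1, 0.062 to 0.0764) and *Ghr* (C1, C2 or K1, 0.0809 to 0.214). With the mean of all kept probe sets per gene the adjusted p of *Ghr* was 0.288 and *Tgfa* was 0.153.

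Among 15 genes that define the hepatocyte 1 rose, the tyrosine aminotransferase *Tat* (0.70), and 1 fell, *Apob*. The summed intensity of the list was 18.00 and 17.99 in control and 18.03 and 18.02 in Cnot3-/- livers on the log2 scale. The brightest transcripts weigh most in this sum, and those at the top of the range may not show a difference. The master regulators *Hnf4a* and *Cebpa* differed by 0.11 and 0.35 and did not pass. Of 52 transcription factors and nuclear receptors 9 rose and 6 fell, with the xenobiotic receptor *Nr1i3* (CAR) up by 0.76. *Hlf*, a clock-driven factor, stood at 8.57 and 8.65 in control and 7.73 and 7.89 in Cnot3-/- livers, and the biliary and hepatic factor *Onecut2* fell by 0.89. In the clock list *Nfil3*, which represses the genes that Hlf and Tef activate, rose by 0.98 and *Nr1d2* fell by 1.09. Transcripts of the fetal and progenitor liver did not rise as a list (1 higher and 4 lower of 25, median −0.01). Alpha-fetoprotein, *Afp*, stood at 15.04 and 15.09 against 15.09 and 15.07 (difference 0.02). It lay near the top of the range, as albumin did, so its level may not show a difference. *Dlk1* differed by −0.10, and *Gpc3*, *Sox4*, *Plagl1* and *Igdcc4* fell by 0.68, 0.53, 0.54 and 0.57. Rises among the transcription factors were 4, 4, 3 and 4, and falls 3, 2, 1 and 5, without C1, C2, K1 and K2. The call did not hold without 1 array for *Onecut2* (K1, adjusted p 0.0573), *Nr1i3* (C2 or K1, 0.0736 to 0.0877), *Nr1d2* (C1, C2 or K1, 0.0704 to 0.165), *Gpc3* (C1, C2 or K1, 0.0814 to 0.206), *Tat* (C1, K1 or K2, 0.0615 to 0.13), *Plagl1* (C2, K1 or K2, 0.071 to 0.169), *Sox4* (C1, C2, K1 or K2, 0.079 to 0.186) and *Igdcc4* (C1, C2, K1 or K2, 0.0686 to 0.153). Averaged over all kept probe sets of a gene, the adjusted p of *Igdcc4* was 0.132, *Plagl1* was 0.114 and *Sox4* was 0.15.

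Of 13 keratins 4 rose and 1 fell. Keratins 8 and 18 form the intermediate filaments of hepatocytes, and *Krt18* stood at 12.58 and 12.27 in control and 13.79 and 13.48 in Cnot3-/- livers and *Krt8* at 12.08 and 12.18 against 13.42 and 13.10 (differences 1.21 and 1.13). The ductal keratins *Krt7* and *Krt19*, named after their values were seen, differed by −0.29 and −0.41 and did not pass. Other bile duct genes were called higher, among them *Cldn7* and *Cldn4*, given below. Of 37 junction genes 11 rose and 1 fell. The rises were in tight junctions and desmosomes: *Ocln* stood at 9.07 and 8.58 against 10.02 and 9.81, the desmosomal protein *Pkp2* at 10.11 and 10.03 against 11.39 and 11.30, and claudin 7, *Cldn7*, at 8.22 and 7.54 against 10.93 and 9.55 (difference 2.36), with Cnot3-/- number 1 far above number 2. *Cldn4* and *Marveld3* rose by 1.55 and 1.38. The junction gene that fell was *Cldn5*, the claudin of endothelium (−0.58). The actin-severing protein *Gsn* and the tubulins *Tubb2b* and *Tubb6* rose by 1.76, 1.48 and 1.08, with *Tubb2b* at 5.48 and 5.66 against 7.19 and 6.92. Of 27 annexins, S100 proteins and galectins 8 rose and 1 fell, *Lgals3bp* by 1.00 and the membrane partners *Anxa2* and *S100a10* by 0.86 and 0.83. Matrix proteases were higher in 3 and lower in 3 of 33: the collagenase *Mmp13* stood at 4.09 and 4.33 against 7.49 and 6.89, the elastase *Mmp12* rose by 1.10 and their inhibitor *Timp1* by 1.34. The junction calls were 6 and 9 without control number 1 or 2, and 4 and 8 without Cnot3-/- number 1 or 2. Those of annexins, S100 proteins and galectins were 5, 5, 1 and 6 without C1, C2, K1 and K2. Single arrays decided the call of *Anxa2* (K1, adjusted p 0.0623), *S100a10* (K1, 0.0806), *Cldn4* (C1 or K1, 0.0606 to 0.0838), *Marveld3* (C1 or K1, 0.0708 to 0.0725) and *Cldn5* (C1, K1 or K2, 0.0769 to 0.19).

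Among markers of cells other than hepatocytes, falls outnumbered rises in the lists of endothelium, stellate cells and red cell precursors, and their counts depended on single arrays. In whole-liver RNA fewer cells of a type and less RNA per cell cannot be told apart. Of 35 endothelial genes 14 (40%) fell and none rose, 34 had a negative difference (median −0.41), and the summed intensity on the log2 scale was 14.68 and 14.58 in control and 13.96 and 14.17 in Cnot3-/- livers. The scavenger receptor *Stab2* stood at 10.36 and 10.26 in control and 9.27 and 9.47 in Cnot3-/- livers (difference −0.94, adjusted p = 0.0047), *Ehd3* at 10.94 and 10.32 against 9.46 and 9.78, and the transcription factor *Sox17* fell by 0.77. The 14 endothelial calls were 3 and 7 without control number 1 or 2, and 0 and 9 without Cnot3-/- number 1 or 2, and from 9 to 17 under the other settings. Of 38 genes of stellate cells and fibroblasts 9 fell and 1 rose (median −0.26), the 9 being 2, 2, 0 and 2 without C1, C2, K1 and K2 and 4 to 12 under the other settings, and the vitamin A cell marker *Reln* stood at 12.16 and 11.98 against 11.18 and 11.56 (difference −0.70). Of 40 collagens 4 fell and none rose. Of 28 erythroid genes 5 fell and none rose, 27 had a negative difference (median −0.50), and the medians of Cnot3-/- number 1 and number 2 against the controls were −0.71 and −0.32. The summed erythroid intensity was 16 and 16.37 in control and 15.53 and 15.87 in Cnot3-/- livers, so the controls differed from each other by more than the lower control from the higher Cnot3-/- array. The water channel *Aqp1*, shared by red cell precursors and endothelium, stood at 12.17 and 12.21 against 11.20 and 11.51. The erythroid calls were 8 and 1 without control number 1 or 2, and 0 and 11 without Cnot3-/- number 1 or 2, and from 2 to 20 under the other settings. Lost without a single array was the call of *Stab2* (K1, adjusted p 0.0674), *Ehd3* (K1, 0.0816), *Aqp1* (K1, 0.103), *Sox17* (C1 or K1, 0.0524 to 0.0602) and *Reln* (C1 or K1, 0.0915 to 0.165).

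**Figure D5:**
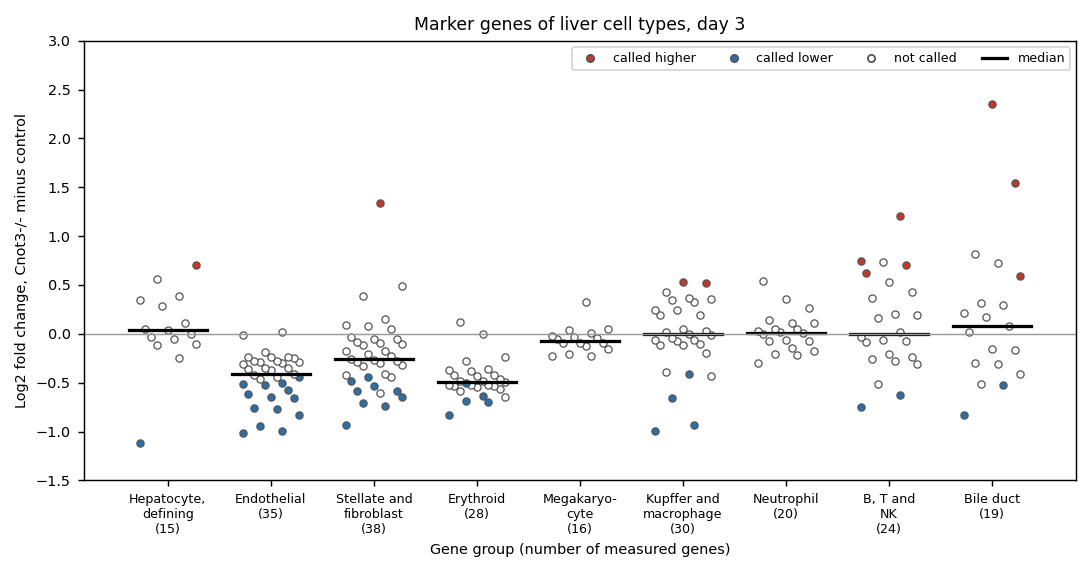
Log2 fold change (Cnot3-/- minus control at d3) of each measured marker gene for 9 cell types, with called genes filled, others open, and the median as a bar. Endothelial markers (median −0.41) and erythroid markers (−0.50) lie almost wholly below 0, while defining hepatocyte genes centre on 0.04.

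Lists of white blood cells had calls in both directions or none. Kupffer cell and macrophage genes had 2 higher and 4 lower of 30, with a summed intensity of 15.78 and 15.86 in control and 15.84 and 15.84 in Cnot3-/- livers. The 4 lower genes included *Vsig4*, a complement receptor, at 11.19 and 11.14 in control and 10.28 and 10.18 in Cnot3-/- livers (difference −0.94) and *Cd163*, a hemoglobin scavenger receptor, at 7.07 and 7.59 against 6.14 and 6.53 (−1.0), while the macrophage pore protein *Mpeg1* rose by 0.53. In the lymphoid list 4 of 24 rose and 2 fell, with a summed intensity of 13.12 and 13.10 in control and 13.33 and 13.30 in Cnot3-/- livers. The cytotoxic granule enzyme *Gzmb* rose by 1.20 and the T cell gene *Cd3d* by 0.71. *Gzmb* stood at 8.60 and 8.94 against 10.03 and 9.91. The B cell gene *Ms4a1* fell by 0.74. Of 20 neutrophil, 16 megakaryocyte and 9 mast cell genes none passed in either direction. Of 19 bile duct genes 3 rose and 2 fell, the rises including *Cldn7* and *Cldn4* and the falls *Aqp1*. Pancreatic, intestinal and muscle genes, which the liver should lack, had no call among 19. The part of these cells in the immune results above was not tested. Calls that 1 array decided were those of *Cd3d* (C1 or K2, adjusted p 0.0606 to 0.0766), *Mpeg1* (C1, K1 or K2, 0.0895 to 0.158), *Ms4a1* (C1, K1 or K2, 0.0517 to 0.0767), *Cd163* (C2, K1 or K2, 0.054 to 0.254) and *Vsig4* (C1, C2, K1 or K2, 0.0705 to 0.0896). Reading a gene by the mean of its kept probe sets, the adjusted p of *Cd163* was 0.0503.

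The same lists at E16.5, where the study reports only a partial fall of Cnot3 protein, are set beside these results. The median log2 fold change was −0.05 for the guanylate-binding proteins, 0.20 for the immunity-related GTPases, 0.02 for nucleic acid sensors, −0.04 for schlafens, −0.03 for the class I pathway, −0.02 for poly(ADP-ribose) polymerases, −0.01 for the immunoproteasome, 0.01 for p53 targets, −0.03 for mitochondrial ribosomal proteins, −0.07 for endothelial and 0.03 for erythroid genes. The difference between the ages was called, always with the more positive effect at d3, for 4 of 4 immunoproteasome genes, 4 of 6 guanylate-binding proteins, 4 of 6 immunity-related GTPases, 10 of 24 nucleic acid sensors, 6 of 29 p53 targets and 3 of 76 mitochondrial ribosomal proteins, against 2.3% of all genes. Among the endothelial, erythroid, coagulation and fatty acid oxidation genes, whose calls at d3 were mainly falls, it was called for none. Over all genes it was called in the negative direction for 0.228%, so this absence is near the background.

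Symbol families with broad roles changed in a few members. Among 31 serine protease inhibitors 6 rose and 2 fell, and *Serpinb9*, the inhibitor of granzyme B, stood at 7.75 and 7.85 in control and 9.37 and 9.04 in Cnot3-/- livers (difference 1.41). Of 76 ring finger proteins 8 rose and 5 fell, with the giant ubiquitin ligase *Rnf213* up by 1.58, at 10.48 and 10.80 against 12.32 and 12.14, and *Rnf135*, an activator of RNA sensing, up by 1.21. Solute carriers with clear rises were the amino acid transporter subunit *Slc3a1* at 7.43 and 7.62 against 10.29 and 9.94 (2.60), *Slc23a3* (1.43), *Slc44a4*, a choline transporter relative (1.27), and the magnesium transporter *Slc41a2* (1.12). Of 69 Rab GTPases, which direct vesicles, 6 rose and 3 fell, *Rab29* by 0.99 and *Rab38* by 0.88. Of 24 dual specificity phosphatases 3 rose, led by *Dusp14* (0.97). Hydroxysteroid dehydrogenases had 2 higher and 2 lower of 18, and the lipid droplet enzyme *Hsd17b11* stood at 12.91 and 12.88 against 11.74 and 12.08 (difference −0.98). The steroid hydroxylase *Cyp17a1* rose by 1.01. In the zinc finger family *Zfp622* rose by 0.83 and *Zfp799* fell by 1.00, and in the collagens *Col13a1*, a transmembrane form, fell by 1.09.

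Families known for roles outside the liver had no calls, and zinc finger genes and RIKEN clones had few. None of 28 olfactory receptors, 10 vomeronasal receptors, 25 Hox genes and 11 defensins passed. Of 316 zinc finger genes 8 rose and 12 fell (2.53% and 3.8%), and of 989 genes named only as RIKEN clones 27 and 26 (2.73% and 2.63%). The shares over all genes were 10.2% and 4.1%, so the zinc finger falls were near the background. Outside all lists and families stood further large changes. The glyoxalase relative *Glod5* rose by 3.27, the meiotic gene *Meiob*, which acts in the recombination of germ cells, stood at 5.54 and 5.44 in control and 8.34 and 8.25 in Cnot3-/- livers (2.81, adjusted p = 1.46e-06), and *Capsl* at 5.18 and 4.77 against 7.76 and 7.41. The keratinocyte envelope protein *Sprr1a* rose by 2.79. The largest falls outside the lists were *Homer2*, a scaffold protein, at 9.24 and 9.25 against 6.88 and 7.86 (−1.88), the glutaminyl cyclase *Qpct* at 10.37 and 10.40 against 8.29 and 8.82 (−1.83) and the antisense transcript *Prox1os* (−1.77), whose probe set may also read its sense partner. The acyltransferase *Acnat2* rose by 2.40, at 8.10 and 8.07 against 10.72 and 10.24. Among further falls were the macrophage lectin *Cd209f* (−1.29), the scavenger receptor *Scara3* (−1.34) and *Pcp4l1* (−1.5). *Npr3*, the clearance receptor for natriuretic peptides, fell by 1.34, at 7.61 and 7.71 against 6.13 and 6.52.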

How the data were processed

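Total RNA of whole livers was hybridised as biotin-labelled cRNA to Affymetrix GeneChip mouse arrays, 2 in each of 4 groups. The authors summarised each probe set by RMA, in a version not given in the sources used here, and deposited the values as intensity on a linear scale. Here log2 of the deposited intensity was taken, although a log2 table had been planned for. Groups and array numbers came from the sample titles. Of 45037 probe sets, 6597 that lay under the 20th percentile in all 8 arrays were removed and 38440 kept, after the study's filter. Names came from the platform annotation: 34945 probe sets had 1 symbol, 932 several and 9160 none, and only those with 1 symbol were used. For 204 of the named ones no gene number matched the RefSeq table, and the older symbol was kept. Where a gene had several, the brightest on average across all arrays was used. Values of 1 probe set were never set against another's.

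limma 3.58.1 in R 4.3.3 (lmFit and eBayes, 4 residual and 7.19 prior degrees of freedom) fitted the 4 groups together, and calls used an adjusted p under 0.05 over all genes. The summed intensity of a list is the log2 of its added linear intensities. The fit was tested on simulated data. Alternatives were other filters, quantile normalization, median centring, the d3 arrays alone, the mean of all probe sets of a gene, an intensity trend, array weights, the replicate block, leaving out each array, a fold threshold of 2 and the methods' t-test. The genes, lists and symbol families were chosen with earlier results of these data known, and 1 family pattern was dropped after values were seen because it matched unrelated genes. Up to 6 called members of a list with the largest change could be named, or the 2 largest where fewer than 2 passed. Fixed groups such as the CCR4-NOT subunits, and the 15 largest each way outside the lists, could also be named. Exceptions are marked.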

Additional observations from a re-analysis of the deposited data

Results flagged for a closer look

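The study reports only a partial fall of Cnot3 protein at E16.5, so age and extent of loss cannot be told apart here. By limma's test of the difference between the 2 effects, the genotype effect at d3 differed from that at E16.5. It did so for 383 genes in the positive and 38 in the negative direction. Among the 260 genes named above it did so for 107 and 15, and these are listed here because their effects at the 2 ages differed. Values in brackets are the log2 fold change at d3 minus that at E16.5, and the smallest adjusted p was 0.0002 (*Meiob*). Their own log2 fold changes at E16.5 lay between −0.30 and 0.33, where limma called no gene. The names were partly chosen for large changes at d3, so these differences are not independent of that choice.

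In the immune groups the differences stood in these genes. Among the GTPases they were *Gbp3* (2.82), *Gbp2* (2.22), *Irgm1* (1.51), *Gbp7* (1.46), *Igtp* (1.41), *Gbp6* (1.28) and *Irgm2* (0.97). Antigen processing and the immunoproteasome had *Psmb9* (1.88), *Psmb8* (1.87), *Psmb10* (1.66), *Tap1* (1.58), *Nlrc5* (1.48), *Erap1* (1.14) and *Psme1* (0.93). Nucleic acid sensing and interferon signalling had *Zbp1* (2.60), *Oas1a* (2.45), *Usp18* (2.19), *Dhx58* (2.08), *Ifih1* (1.94), *Irf7* (1.86), *Irf9* (1.27), *Tlr3* (1.17), *Rnf135* (1.08), *Stat2* (0.98), *Irf1* (0.97) and *Ifng* (0.87). The ADP-ribosylating, schlafen and ubiquitin ligase families had *Trim30d* (2.35), *Parp12* (2.19), *Trim30a* (1.93), *Parp14* (1.86), *Rnf213* (1.68), *Trim34a* (1.59), *Parp9* (1.57), *Parp3* (1.20), *Trim21* (1.20), *Slfn8* (1.16), *Slfn1* (0.98) and *Parp11* (0.80). Secreted and receptor genes of inflammation were *Orm1* (3.28), *Cxcl10* (2.30), *C9* (2.28), *Saa3* (2.01), *Ccl12* (1.95), *Saa1* (1.81), *Cxcl9* (1.63) and *Osmr* (1.05), and those of cytotoxic cells and their inhibitor *Serpinb9* (1.49) and *Gzmb* (1.10). 

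The differences among genes of p53, cell death and stress were *Psrc1* (1.76), *Mlkl* (1.67), *Cdkn1a* (1.51), *Atf3* (1.37), *Phlda3* (1.13), *Gsdmd* (1.12), *Xpa* (1.09), *Rfc3* (1.00), *Pmaip1* (0.99), *Pycard* (0.93) and *Casp4* (0.76). In protein synthesis, respiration and RNA decay they were *Cox7a1* (3.02), *Eif2b4* (0.99), *Exosc4* (0.96), *Mrps35* (0.91), *Ndufaf5* (0.87), *Mrpl45* (0.83) and *Rars* (0.74). Metabolic and secretory genes with a more positive effect at d3 were *Slc3a1* (2.36), *Cyp4a12a* (2.36), *Acnat2* (2.28), *Baat* (2.19), *Serpina6* (2.18), *Hal* (1.71), *Gstt3* (1.53), *Slc51b* (1.5), *Pfkp* (1.42), *Slc23a3* (1.40), *Gstp3* (1.26), *Nampt* (1.24), *Gpt* (1.19), *Ces2b* (1.14), *Slc41a2* (1.12), *Plin3* (1.12), *Cyp17a1* (1.11), *Alas1* (1.07), *Slc44a4* (1.03), *Cyp2d9* (0.91), *Pex16* (0.87) and *Acacb* (0.78). The cytoskeleton, junctions and matrix added *Mmp13* (3.05), *Gsn* (1.95), *Tubb2b* (1.74), *Timp1* (1.42), *Pkp2* (1.16), *Mmp12* (1.06), *Ocln* (1.04), *Krt18* (1.00), *Tubb6* (0.98) and *Lgals3bp* (0.95). Others were *Glod5* (3.28), *Sprr1a* (2.77), *Capsl* (2.58), *Meiob* (2.52), *Nfil3* (1.27), *Rab38* (1.00), *Rab29* (0.89), *Dusp14* (0.88) and *Zfp622* (0.85). 

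A more negative effect at d3 was called for *Cyp2c54* (−2.0), *Serpina7* (−1.84), *Homer2* (−1.79), *Prox1os* (−1.54), *Pdxk* (−1.48), *Pcp4l1* (−1.48), *Npr3* (−1.47), *Ugt3a2* (−1.41), *Cd209f* (−1.26), *Tmprss6* (−1.08), *Fads1* (−1.05), *Cyp1a2* (−0.93), *Cyp4a31* (−0.85), *Zfp799* (−0.83) and *Hlf* (−0.80). Several of these, such as the carrier gene *Serpina7*, the kinase gene *Pdxk* and the protease gene *Tmprss6*, are known to be expressed in hepatocytes. The cell type was not tested here.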

How the results depend on the processing

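With 2 arrays per group, the d3 counts of 1698 higher and 684 lower genes depended on single arrays. Leaving out 1 of the 4 d3 arrays gave 480 to 943 higher and 59 to 373 lower calls, 1048 to 1353 genes more than 1.5-fold higher and 300 to 677 more than 1.5-fold lower, and leaving out 1 of all 8 arrays gave 104 to 663 calls for the difference between ages, against 421. The lowest counts came without Cnot3-/- number 1 at d3, and 663 without Cnot3-/- number 1 at E16.5. An array left alone in its group was assumed to vary like the other groups.

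Median centring of each array left 452 lower calls (1779 higher), while array weights gave 1097 lower and 2238 higher. Higher calls were 71.3% of all calls, 79.7% with median centring and 63.4% with quantile normalization. At a fold threshold of 2 there were 300 genes higher and 56 lower. The methods' t-test gave 2265 higher and 1190 lower at the unadjusted threshold of 0.05, and 2 and 1 after Benjamini-Hochberg adjustment. With the replicate block, replicate number within age as a block, there were 2087 higher and 1036 lower calls and 678 for the difference. The numbers are not known to pair the samples: with 2 pairs, the deviations of same-numbered d3 arrays from their group means correlated at 0.14 over genes. Without a filter on low values, with a filter at the 50th percentile, with the d3 arrays alone, with the mean of all probe sets of a gene and with an intensity trend in the variance prior, the counts of higher calls lay between 1422 and 1874 and those of lower calls between 542 and 830.

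Over the named genes 3375 values were recomputed, of which 3171 kept their side of the threshold, 189 lost the call and 15 gained one. Of the values of called genes 0 changed direction. Changes of direction in genes not called were not counted. Most losses came with 1 array left out or with the mean of all probe sets, and are given beside the genes. The others were *Cd163* and *Cnot2* with quantile normalization (adjusted p = 0.07 and 0.0524), *E2f2* with median centring (0.0527), and *E2f2*, *Hamp2*, *Ppargc1a* and *Slc2a1* with the d3 arrays alone (0.0646, 0.0622, 0.0561 and 0.0627). *Cnot6*, *Fgb*, *Ifnar2* and *Igf2*, not called in the report, passed under at least 1 other setting, and *Cyp2b9* without control number 2 at d3. The number of arrays limits the precision throughout.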
